A study of Mus musculus with 10 samples.

Results

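The apoptosis machinery genes described here are 38 genes that start, carry out or restrain programmed cell death. They are 6 caspases (initiator, executioner and inflammatory), 8 BH3-only proteins, 3 multidomain effectors, 4 pro-survival BCL2 proteins, 4 mitochondrial and apoptosome factors, 6 genes of death receptor signalling, 2 of the p53 family, 2 inhibitor of apoptosis (IAP) proteins and 3 genes of mitophagy and stress. They were chosen by name, with earlier results of these data known. All 38 were found among the 26180 curated RefSeq genes of the mouse build mm10. The data are ChIP-seq profiles (sequencing of immunoprecipitated chromatin) of the transcriptional repressor REST in cortex of female mice aged 11 months. There were 4 replicates from WT mice and 4 from 3xTg mice, each a pool of 4 cortices, and 1 input library per genotype. 3xTg mice carry human APP Swe and tau P301L transgenes and a PS1 knock-in mutation, and model Alzheimer's disease. WT controls were described as littermates, and the 3xTg colonies were kept on a hybrid strain background. The tissue was bulk cortex, so binding in more cells and stronger binding per cell cannot be told apart. The question was which of these genes had REST binding sites in either genotype.

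REST recognises a long DNA element, RE1, and recruits co-repressor complexes that silence genes, above all neuronal genes outside neurons. In aging neurons it has also been linked to repression of genes that promote cell death. In the mitochondrial pathway, BH3-only proteins sense damage and free or activate the effectors BAX and BAK, which open the outer mitochondrial membrane. Cytochrome c then assembles with APAF1 and caspase-9 into the apoptosome, while pro-survival BCL2 proteins and IAP proteins oppose these steps. Death receptors such as FAS reach caspase-8 through adaptor proteins instead.

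The authors deposited 1 peak list per genotype, with 3006 WT and 5077 3xTg peaks outside chromosome Y. Each peak has a fold enrichment, the ratio of ChIP signal to the local background that the peak caller estimated. The lowest fold enrichment in the WT list was 6.003 and in the 3xTg list 8.502, so the lists end at different values. The median was 7.28 in WT and 10.8 in 3xTg. Because each list pools 4 replicates, no value from the lists has a replicate error, and no test between genotypes was made here. The paper did run a differential binding analysis between genotypes. It named Casp9 and Daxx among genes with higher REST occupancy in 3xTg, and reported no peak with significantly lower occupancy. A site absent from a list has no value there, which does not mean that no REST was bound. The depth of each library is not in the lists, and its part in these differences was not tested. The labelled tissue and the transgenes could not be checked from peak positions.

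A gene was counted when any part of a peak fell in its body or at most 5 kb from a start site. In WT, 7 of 38 members had a peak, 18.4%, beside 9.27% of all RefSeq genes. They were Casp2, Casp9, Bcl2, Bcl2l1, Diablo, Trp53 and Birc2. In 3xTg, 9 of 38 members had a peak, 23.7%, beside 14.2% of all genes. The 9 were the same 7 genes with Apaf1 and Bnip3l. Those 2 genes, 5.26% of the members, had a peak in 3xTg and none in WT, beside 6.40% of all genes, so the share of members that gained a listed peak was near the background. All 7 members with a WT peak also had a 3xTg peak, 18.4% of the members beside 7.75% of all genes. The reverse class, a WT peak and no 3xTg peak, held 0 members, beside 1.51% of all genes. Over protein-coding genes alone, 10.3% had a WT peak and 15.7% a 3xTg peak. There, 7.01% had a 3xTg peak and no WT peak, 8.64% had both, and 1.63% had a WT peak and no 3xTg peak. The other 29 members had no peak in either list. Gene length moved with these counts and its part was not tested. The median gene length was 22367 bases in members with a peak and 10196 in members without, and 30502.5 in all genes with a peak beside 13451 in all genes.

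**Figure D1:**
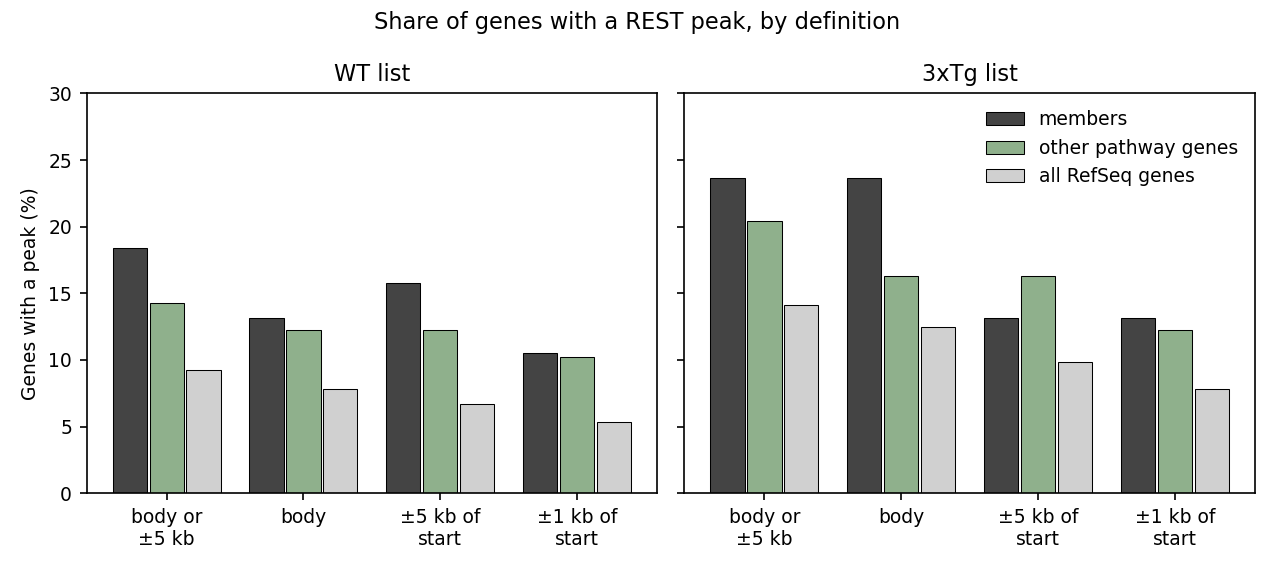
Percent of genes with a REST peak (vertical axis) in the WT list (left) and 3xTg list (right) for 38 members, 49 other pathway genes and 26180 RefSeq genes, under 4 definitions of a gene with a peak. With gene bodies included the members stood at 18.4% in WT and 23.7% in 3xTg; with start sites within 5 kb alone they stood at 15.8% in WT and 13.2% in 3xTg.

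The count depended on gene bodies, most of all in 3xTg. With start sites within 5 kb alone, 6 members had a WT peak (15.8%, beside 6.70% of all genes) and 5 had a 3xTg peak (13.2%, beside 9.84%). No member then had a 3xTg peak without a WT peak (beside 4.61% of all genes), since the Apaf1 and Bnip3l peaks lay deep in introns. Bcl2l1 then had a WT peak and no 3xTg peak.

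The sequences under the summits fell into 3 kinds, and an example of each carries the results that follow. The windows are up to 200 bases around the 3xTg summit on the plus strand of mm10, cut where an annotated exon begins. Capitals mark the short motifs listed below wherever they matched. The first kind is the sequence under the strongest member peak, upstream of Birc2, with 0 motif matches.
Birc2 upstream, chr9:7840055-7840254: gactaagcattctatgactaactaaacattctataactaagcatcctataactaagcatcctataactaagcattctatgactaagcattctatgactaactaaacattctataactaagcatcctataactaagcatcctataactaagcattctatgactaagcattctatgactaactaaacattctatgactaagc
This window repeats itself. Shifted by 79 bases, 99.2% of its bases matched, and 0.827% of all 3xTg windows of this size reached such an identity at any shift from 5 to 100 bases. The median over all 3xTg windows was 35.8%. The second kind is sequence at start sites, rich in CpG.
Birc2 start, chr9:7836887-7836989: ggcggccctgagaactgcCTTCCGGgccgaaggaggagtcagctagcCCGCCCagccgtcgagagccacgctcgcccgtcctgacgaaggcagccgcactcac
Casp2 start, chr6:42264725-42264924: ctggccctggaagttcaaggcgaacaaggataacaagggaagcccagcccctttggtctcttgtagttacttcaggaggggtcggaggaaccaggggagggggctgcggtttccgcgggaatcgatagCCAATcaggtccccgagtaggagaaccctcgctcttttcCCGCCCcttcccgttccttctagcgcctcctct
Diablo start, chr5:123524231-123524430: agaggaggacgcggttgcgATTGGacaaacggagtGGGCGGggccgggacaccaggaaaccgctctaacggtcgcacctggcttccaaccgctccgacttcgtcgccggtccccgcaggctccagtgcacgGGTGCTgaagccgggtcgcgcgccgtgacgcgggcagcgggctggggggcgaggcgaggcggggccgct
Trp53 start, chr11:69580251-69580358: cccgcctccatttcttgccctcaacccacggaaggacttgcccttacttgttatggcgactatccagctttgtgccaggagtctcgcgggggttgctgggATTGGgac
The third kind is CpG-poor sequence in introns far from any start site.
Bcl2 intron, chr1:106589298-106589497: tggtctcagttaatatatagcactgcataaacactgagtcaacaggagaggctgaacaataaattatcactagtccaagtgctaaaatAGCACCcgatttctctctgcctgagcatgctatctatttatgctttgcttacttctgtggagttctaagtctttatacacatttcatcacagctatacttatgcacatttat

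The motifs searched in 200 bases around each summit, on both strands, were AGCACC and GGACAG (the cores of the left and right parts of RE1), GGGCGG (the GC box), CCGGAAG (bound by ETS factors), TGACGTCA (the cyclic AMP response element), CCAAT, and CACGTG (the E-box). None of these overlapped another in the windows shown. GGGCGG lay in 3 of 12 member windows of the 3xTg list (Birc2 start, Casp2 and Diablo), beside 16.9% of all 3xTg windows. CCAAT lay in 3 of 12 (Casp2, Diablo and the upstream Trp53 peak), beside 28.0%. AGCACC lay in 2 of 12 (Bcl2 and Diablo), beside 13.6%. GGACAG and CCGGAAG each lay in 1 of 12, beside 15.7% and 5.16%, and TGACGTCA and CACGTG in 0, beside 0.788% and 3.49%. No window held the 2 RE1 cores together.

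The whole RE1, 20 bases long, was then searched with at most 5 mismatches anywhere in each peak. None of the 9 WT and 12 3xTg member peaks held such a match, beside 213 of 3006 WT peaks (7.09%) and 309 of 5077 3xTg peaks (6.09%). With shares this low over the whole lists, a count of 0 among so few peaks is near the background. The nearest matches had 6 mismatches, in the Bcl2l1 intron, at Diablo and, in 3xTg alone, at Trp53. The Trp53 site lay outside the narrower WT peaks, so it was not searched in WT. With at most 6 mismatches, 14.8% of all WT peaks and 17.5% of all 3xTg peaks held a match. The nearest member matches are shown in the direction of RE1 with matching bases in capitals.
Diablo, chr5:123523980-123523999, minus strand: GcCcCgGgCCgTGGTGCTGc
Bcl2l1, chr2:152820622-152820641, minus strand: GGAGCTGgCCtgGGaGgaGA
Trp53, chr11:69580624-69580643, minus strand: GcCcaTcTCCATcGcGCTGA
These matches lay 341, 521 and 369 bases from the 3xTg summits of their peaks, in that order. Outside the members, Bcl2l13, which encodes a BCL2-like protein of the outer mitochondrial membrane, had a match with 4 mismatches in both lists (chosen after its value was seen). It lay 360 bases from the WT summit and 357 from the 3xTg summit. With at most 4 mismatches, 5.49% of all WT peaks and 3.84% of all 3xTg peaks held a match.
Bcl2l13, chr6:120836440-120836459, plus strand: cGAGCTGaCCAcGGTGCTGc

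Among the member peaks, CpG content set those near start sites apart from the rest. The ratio of observed to expected CpG ranged from 0.638 to 0.808 in the 6 3xTg member peaks with a summit under 2 kb from any start site. It ranged from 0.105 to 0.322 in the 6 others. In WT the ranges were 0.565 to 0.840 in 6 peaks and 0.0632 to 0.223 in 3. Over the whole lists the medians differed in the same direction, 0.681 and 0.210 in 3xTg and 0.729 and 0.226 in WT. The ranges there overlapped, 0 to 1.10 near start sites and 0 to 1.45 elsewhere in 3xTg. In WT they were 0 to 1.27 and 0 to 1.67.

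The member genes held 9 WT peaks and 12 3xTg peaks. In WT, 8 were shared, with 1 base or more in common with a peak of the other list, and 1 was WT-only (11.1%, beside 16.7% of all WT peaks). Of the 3xTg peaks, 8 were shared and 4 were 3xTg-only (33.3%, beside 51.0% of all 3xTg peaks). These classes carry the different ends of the lists with them. Of the 9 WT member peaks, 7 had a fold enrichment below the lowest 3xTg value of 8.502 (77.8%, beside 68.4% of all WT peaks). When the 3xTg list was limited to its 3006 highest fold enrichments, as many as in WT, no member had a 3xTg peak without a WT peak, beside 2.42% of all genes. When both lists were limited to fold enrichments over 10, 6 members did (15.8%, beside 7.49% of all genes), because only Birc2 kept a WT peak, beside 1.90% of all genes.

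**Figure D2:**
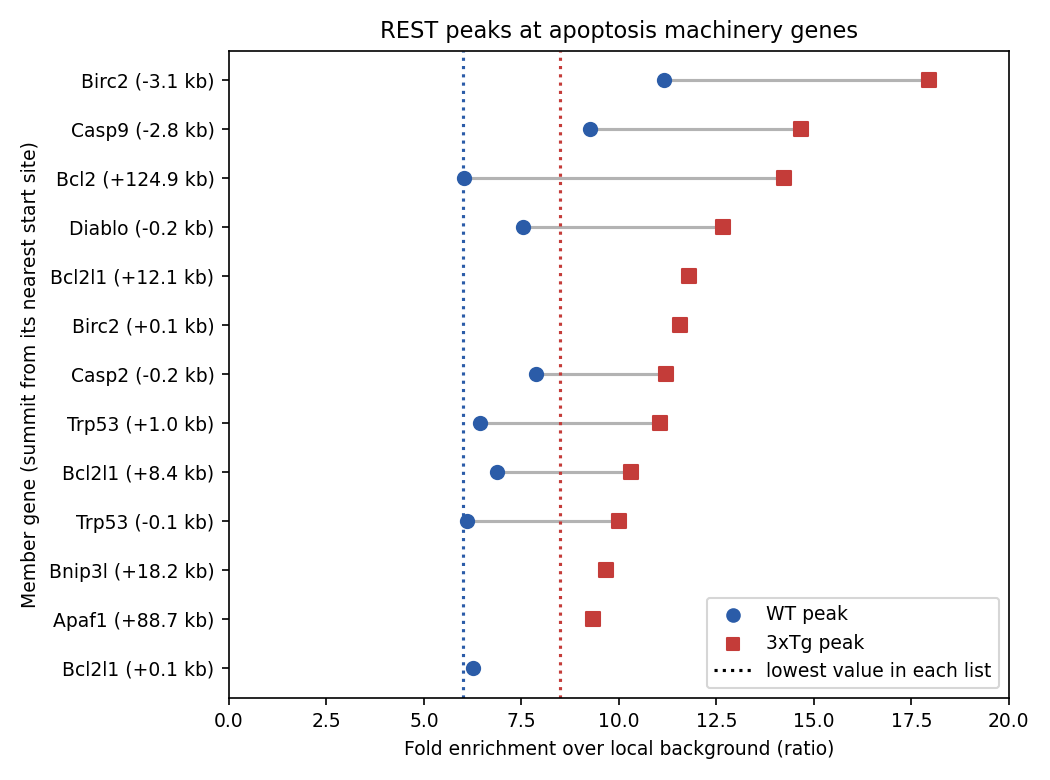
Fold enrichment (horizontal axis, a ratio) of every member peak in WT (blue circles) and 3xTg (red squares), with grey lines joining shared peaks, dotted lines at the lowest value of each list, and the distance of the summit (3xTg where there is one) from the gene's nearest start site in kb. The upstream Birc2 peak was highest in both lists, at 11.2 in WT and 17.95 in 3xTg, and the WT peak of Bcl2 (6.03) and the upstream WT peak of Trp53 (6.09) sat next to the WT limit of 6.003.

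Among the caspases, Casp2 and Casp9 had peaks, in both genotypes. Casp9 encodes the initiator caspase of the apoptosome. Its WT peak, chr4:141790576-141791307, had a fold enrichment of 9.27, rank 721 of 3006, and its 3xTg peak, chr4:141789923-141794382, had 14.7, rank 1113 of 5077. The summits lay 2809 and 2763 bases upstream of Casp9 but only 159 and 205 bases from the start of Dnajc16, which encodes a DnaJ family protein, so the peak cannot be assigned to either gene from its position. The peak was 732 bases wide in WT and 4460 bases wide in 3xTg, where it was the 10th widest in its list. Only the 3xTg peak reached over the Casp9 start site.

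Casp2 encodes an initiator caspase that responds to DNA damage and other stress. Its peaks covered the start site in both lists. The WT peak, chr6:42264632-42265182, had a fold enrichment of 7.89, rank 1183, and a summit 188 bases upstream of the start. The 3xTg peak, chr6:42264497-42265388, had 11.2, rank 2337, with a summit 160 bases upstream. In percent of its own list, counted from the strongest peak, it stood at 39.4% in WT and 46.0% in 3xTg. The ratio of 3xTg to WT fold enrichment, 1.42, was the lowest of the member pairs.

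The caspases without a peak were Casp8, the initiator of the death receptor pathway, Casp6, an executioner, and the inflammatory Casp1 and Casp12. For Casp8 the nearest peak in both lists, 48068 bases away in WT and 47853 in 3xTg, lay in an intron of the neighbouring Cflar. For Casp6 it was 364912 bases away in WT and 69836 in 3xTg. For Casp1 and Casp12 it was the same peak, 988211 to 1035514 bases away.

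Of the pro-survival BCL2 proteins, Bcl2 and Bcl2l1 had peaks. Bcl2, whose product keeps BAX and BAK in check, had a shared intronic peak 124903 bases downstream of its start in WT and 124892 in 3xTg. The WT peak, chr1:106588975-106589706, had a fold enrichment of 6.03 and stood at rank 2973 of 3006, next to the end of the list. The 3xTg peak, chr1:106588983-106589691, had 14.2 and rank 1200 of 5077. The summits were 11 bases apart. The nearest start site of any gene was that of Mir3473f, 42756 bases from the WT summit and 42767 from the 3xTg summit. The ratio of 2.36 was the highest of the member pairs and was above that of 93.5% of the 2504 shared pairs.

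Bcl2l1 encodes BCL-XL, the main pro-survival BCL2 protein of mature neurons. It had the only WT-only member peak, chr2:152830874-152831837, over the start site, with a fold enrichment of 6.26 and rank 2478. That value is below the end of the 3xTg list. A shared intronic peak had 6.87 in WT (chr2:152819956-152820709, rank 1834) and 10.3 in 3xTg (chr2:152819784-152821382, rank 2946). A 3xTg-only peak in the same intronic stretch, chr2:152816147-152816838, had 11.8 and rank 2024. Bcl2l1 thus had a listed peak at its start in WT alone and intronic peaks in both genotypes. Bcl2l2 and Mcl1 had none, although a 3xTg-only peak near Pabpn1 lay 9716 bases from the Bcl2l2 start.

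**Figure D3:**
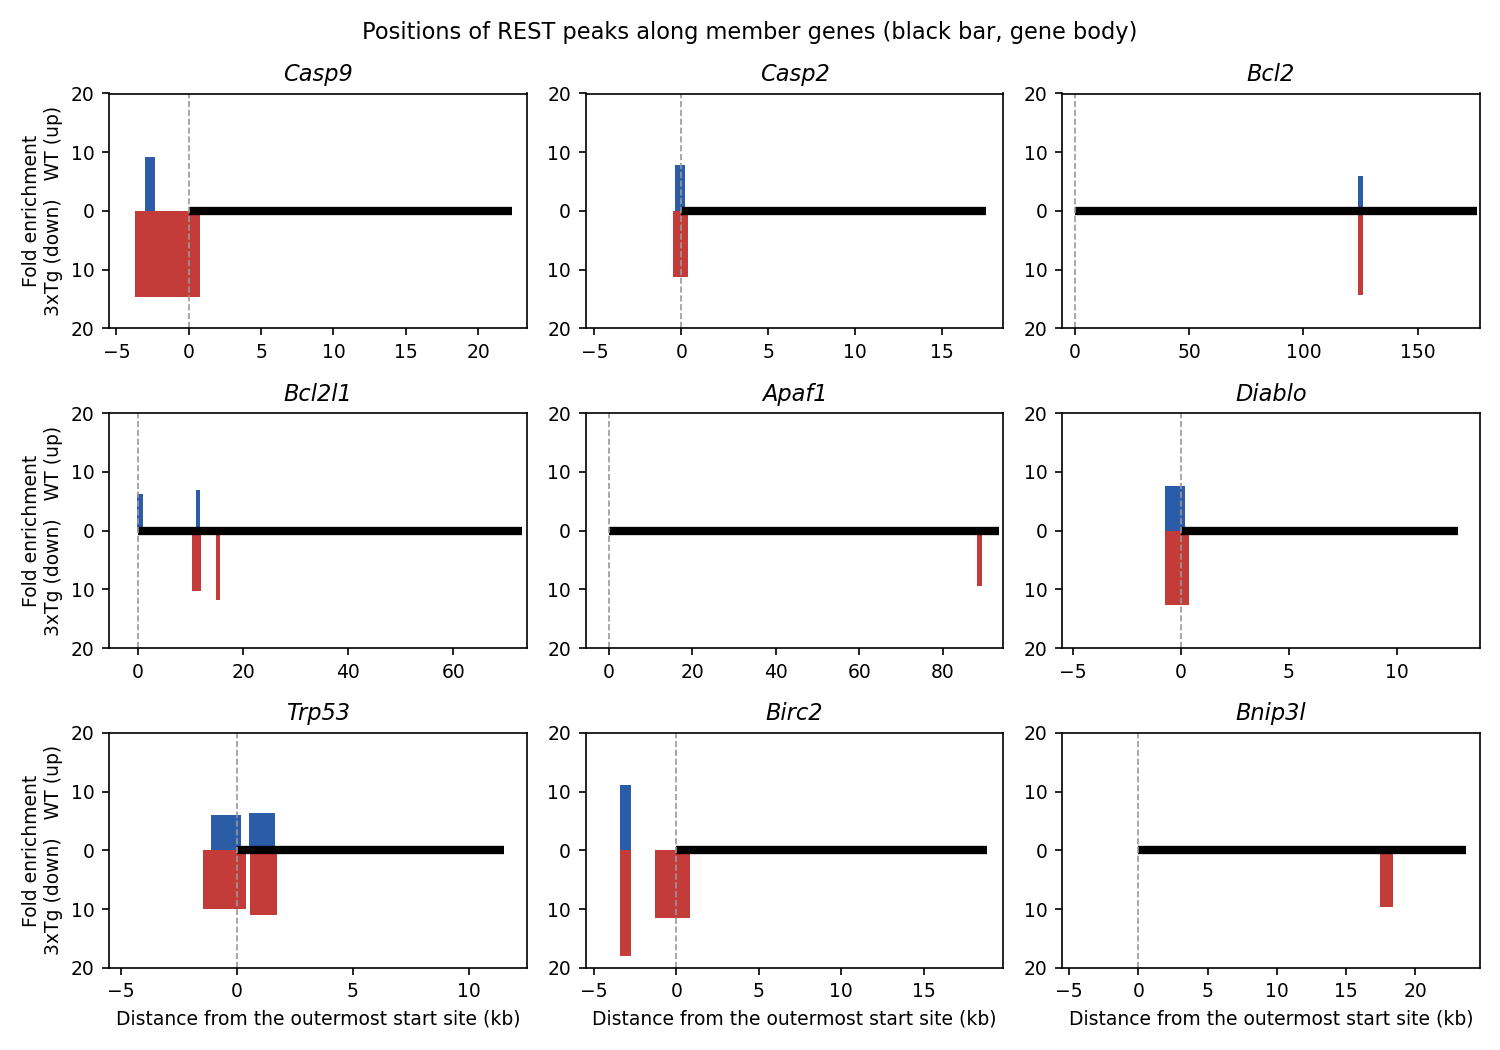
REST peaks along the 9 member genes with a peak, with distance from the outermost start site in kb (horizontal axis, downstream to the right) and fold enrichment as bar height, WT upwards in blue and 3xTg downwards in red; bars are as wide as the peak, with a minimum drawn width. Peaks at start sites (Casp2, Diablo, Trp53, Birc2 in 3xTg, Bcl2l1 in WT) and deep intronic peaks (Bcl2, Apaf1, Bnip3l, Bcl2l1) can be told apart, as can the 4460-base 3xTg peak at Casp9.

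Among the mitochondrial and apoptosome factors, Diablo and Apaf1 had peaks. Diablo encodes the protein (also called SMAC) that is released from mitochondria and binds IAP proteins. Its start site was covered in both lists, by a WT peak with a fold enrichment of 7.55 (chr5:123523962-123524893, rank 1358) and a 3xTg peak with 12.7 (chr5:123523800-123524908, rank 1633). The ratio, 1.68, was close to the median of all shared pairs, 1.70. Apaf1 encodes the scaffold of the apoptosome. It had a 3xTg-only peak in an intron, chr10:90993725-90994366, 88687 bases downstream of its start, with 9.34 and rank 3875. The nearest WT peak to the Apaf1 start was 98442 bases away. Cycs, which encodes cytochrome c, and Endog, a mitochondrial endonuclease, had no peak in either list, and their nearest peaks were 33613 to 108050 bases away.

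Trp53, which encodes p53, had a pair of shared peaks. The upstream peak had a fold enrichment of 6.09 in WT (chr11:69579258-69580531, rank 2773) and 9.99 in 3xTg (chr11:69578911-69580756, rank 3213). Its summit lay 163 bases in WT and 15 bases in 3xTg from a start of Wrap53, a gene on the opposite strand that begins next to Trp53. The 2 summits were 853 bases apart, the largest gap among the member pairs. The second peak, in the first part of Trp53, had 6.43 in WT (chr11:69580888-69582001, rank 2259) and 11.0 in 3xTg (chr11:69580952-69582117, rank 2384), with summits 964 and 1017 bases downstream of the Trp53 start. Trp73, the other member of the family here, had no peak near its start in either list, and the nearest were 1083267 bases away in WT and 907105 in 3xTg.

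Birc2 encodes cIAP1, an E3 ubiquitin ligase that keeps RIPK1 in survival signalling. Its upstream peak was the strongest of the members in both lists, with a fold enrichment of 11.2 in WT (chr9:7839817-7840471, rank 425) and 17.95 in 3xTg (chr9:7839778-7840501, rank 645). The summits lay 3038 and 3098 bases upstream of the start, on the tandem repeat shown above. The repeat spanned chr9:7839978-7840328, 351 bases or 4.44 units of 79 bases, and took up 53.6% of the WT peak and 48.5% of the 3xTg peak. Only 7.02% of the WT peak and 9.25% of the 3xTg peak was masked as a repeat in the reference. Windows with at least 60% identity to themselves at some shift made up 5.76% of WT and 5.10% of 3xTg peaks, and this was the only member peak among them. The part of the repeat in the enrichment was not tested.

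The other Birc2 peak was 3xTg-only and covered the start site, chr9:7836199-7838348, with a fold enrichment of 11.6, rank 2133, and a width of 2150 bases. When peaks on tandem repeats were left out of both lists, an alternative chosen after the data were seen, Birc2 had a peak in 3xTg alone. The members with a WT peak were then 6, beside 8.92% of all genes, those with a 3xTg peak 9, beside 13.8%, and those with a 3xTg peak and no WT peak 3 (Apaf1, Birc2 and Bnip3l), beside 6.35%. Birc3, which encodes cIAP2 and lies next to Birc2, had no peak, and the nearest to its start was the repeat upstream of Birc2, 32699 bases away in WT and 32669 in 3xTg.

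Of the genes of mitophagy and stress, Bnip3l alone had a peak. It encodes NIX, a mitophagy receptor of the outer mitochondrial membrane. The 3xTg-only peak lay in an intron, chr14:66990492-66991425, 18158 bases downstream of the start, with a fold enrichment of 9.67 and rank 3557, and 32.4% of it was masked as repeats. Like the Apaf1 peak it ranked below the 3006th peak of the 3xTg list. Its relative Bnip3 and the stress-induced transcription factor gene Ddit3 (CHOP) had none, with the nearest peaks 127577 to 298584 bases away.

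The BH3-only, effector and death receptor groups had no peak in either genotype. The BH3-only genes Bad, Bbc3, Bcl2l11, Bid, Bik, Bmf, Hrk and Pmaip1 (0 of 8) include those for PUMA, NOXA and BIM. Their nearest peaks were 33014 to 656243 bases from the start in WT and 18359 to 650578 in 3xTg. Among the effector genes (0 of 3), which encode the proteins that permeabilise the mitochondrial membrane, the nearest peaks to Bax, Bak1 and Bok were 100117, 88766 and 1504635 bases away in WT and 6542, 88685 and 178092 in 3xTg. The death receptor genes Fas, Tnfrsf1a, Fadd, Tradd, Ripk1 and Daxx (0 of 6) had their nearest peaks 21168 to 758407 bases away in WT and 6038 to 251232 in 3xTg. With 9.27% and 14.2% of all genes having a peak, groups this small without a peak are not set apart from the background.

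**Figure D4:**
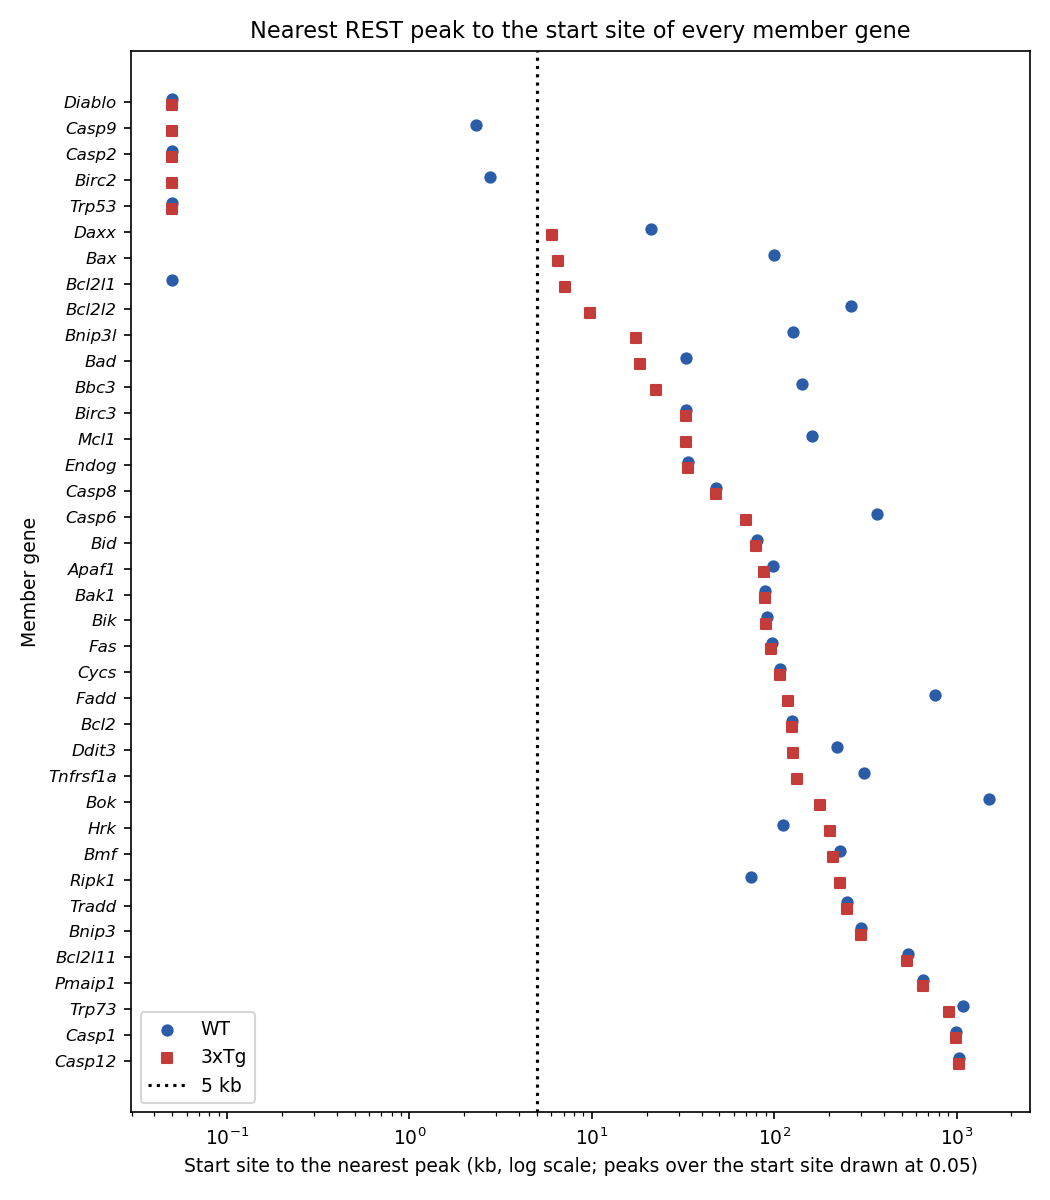
Distance from the start site to the nearest edge of a peak (horizontal axis, kb, log scale) for all 38 members in WT (blue circles) and 3xTg (red squares), sorted by the 3xTg distance, with a dotted line at 5 kb; peaks over a start site are drawn at 0.05. Daxx and Bax lie just right of the line in 3xTg, at 6038 and 6542 bases, while Bcl2l1 has a WT peak over its start and a nearest 3xTg peak 7107 bases away.

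In 3xTg, peaks lay just outside the 5 kb limit at Daxx, 6038 bases from its start, and at Bax, 6542 bases from its start. Of the peaks counted through this limit that did not reach the gene itself, the farthest from a start were the upstream Birc2 peaks, 2760 bases away in WT and 2721 in 3xTg, and the WT peak of Casp9, 2305 bases away. Daxx, which encodes an adaptor and chromatin protein linked to death signalling from FAS, was the closest outside. A 3xTg-only peak, chr17:33915639-33916220, with a fold enrichment of 11.9 and rank 1961, began 49 bases past the end of Daxx and 6038 bases from its start. Its summit was 152 bases from the start of Zbtb22, a zinc finger gene that follows Daxx. The nearest WT peak was 21168 bases from the Daxx start. The primers used for ChIP-qPCR at Daxx match inside this 3xTg peak, upstream of Zbtb22.
Daxx forward primer, chr17:33916077-33916096, plus strand: aaggaaaagtgtcgctgtcg
Daxx reverse primer, chr17:33916141-33916159, minus strand: ccggacctgcgaccttaaa

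For Bax, whose product forms pores in the outer mitochondrial membrane, a 3xTg-only peak lay 6542 bases from the start and 1339 bases from the gene body. It had a fold enrichment of 8.61, rank 4973 of 5077, and a summit 9 bases from the start of Ftl1, which encodes ferritin light chain. A 3xTg-only peak also lay 18359 bases from the start of Bad, with 8.82 and a summit 1153 bases from the start of Esrra, a nuclear receptor gene. These neighbouring genes were named after their values were seen. Within 20 kb of a start site, 6 members had a WT peak (15.8%, beside 11.4% of all genes) and 11 had a 3xTg peak (28.9%, beside 17.1%). The median distance from a member's start to the nearest peak was 110036 bases in WT and 88531 in 3xTg, beside 216530 and 131063 over all genes.

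The 8 shared member pairs were compared with all 2504 shared pairs. Over all pairs the median ratio of 3xTg to WT fold enrichment was 1.70, with quartiles of 1.49 and 1.94, and 2492 of the 2504 ratios were above 1. The ends of the lists fixed much of this, since a shared peak with a WT value under 8.502 can only have a ratio above 1. That held for 1559 of all pairs (62.3%) and for 6 of the 8 member pairs, all but Birc2 and Casp9. For Bcl2 no ratio under 1.41 was possible. The members had a median of 1.62 and a range from 1.42 (Casp2) to 2.36 (Bcl2). Of the 8 pairs, 2 lay above the median of all pairs and 6 below it. Apart from Bcl2 and Casp2, every member pair lay between the quartiles. By rank within its own list, the Bcl2 peak stood at 98.9% in WT and 23.6% in 3xTg, and the upstream Birc2 peak at 14.1% and 12.7%. The lists differ in length and in where they end, so these ranks are not a measure of change at a site.

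**Figure D5:**
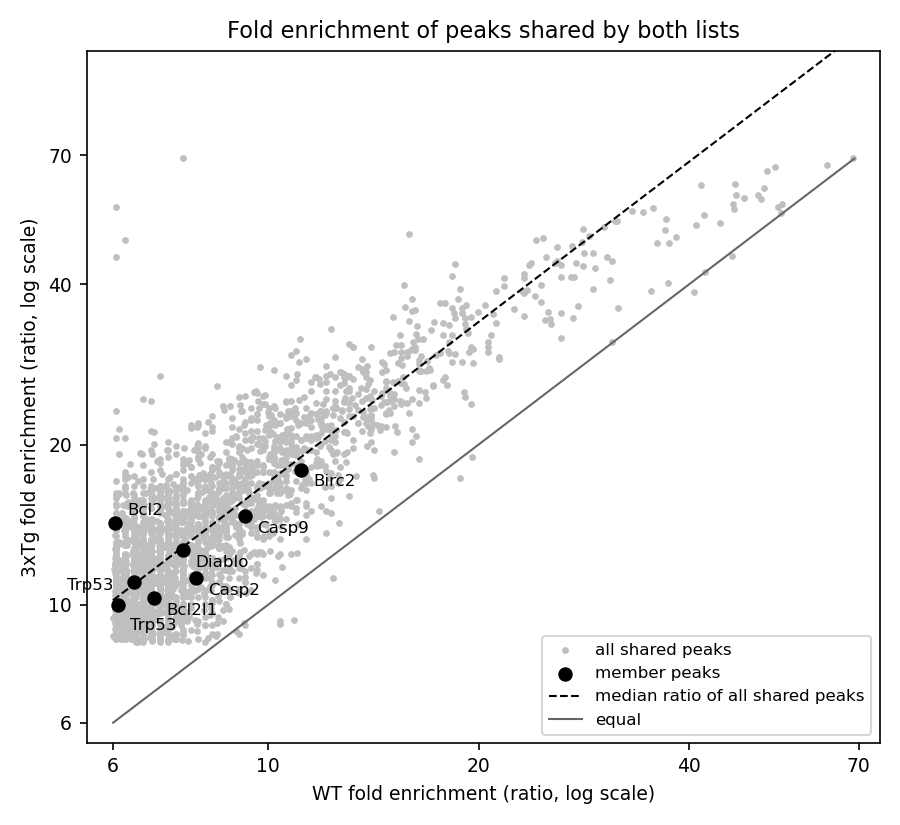
WT (horizontal) and 3xTg (vertical) fold enrichment, both on log scales, of 2504 shared peaks (grey) and the 8 shared member peaks (black, labelled), with a solid line of equal values and a dashed line at the median ratio of 1.70. The member peaks lie near the dashed line, except Bcl2, which lies well above it at 6.03 in WT and 14.2 in 3xTg; for 6 of the 8, a WT value under the lowest 3xTg value of 8.502 fixed a place above the line of equal values.

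A further 49 genes of the apoptosis pathway that were not among the members were read in the same way. In WT, 7 had a peak (14.3%) and in 3xTg 10 (20.4%), beside the 9.27% and 14.2% of all genes given above. Birc5 (survivin) had a WT peak and no 3xTg peak. Their 3 strongest genes in 3xTg were Dffa, Mdm4 and Cflar, each with a shared peak. At Dffa, which encodes the inhibitor of the apoptotic DNase, the fold enrichment was 9.09 in WT and 24.6 in 3xTg (rank 258), with a summit 4 bases from the start of Pex14, a peroxisome gene. At Mdm4, an inhibitor of p53, it was 8.31 and 22.6 (rank 350), with a summit 46 bases from a start site. In an intron of Cflar, whose product restrains caspase-8, it was 6.997 and 13.1 (rank 1470). The Dffa and Mdm4 values in 3xTg were above those of every member.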

How the data were processed

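ChIP-seq reads (single end) were aligned by the authors to mm10. Their methods name STAR 2.7.0a, while the submitters' processing notes name BWA for some samples. The authors called peaks with MACS, kept fold enrichment over 5 and q under 0.01, removed blacklisted regions and deposited 1 pooled list per genotype. The deposited lists end above that fold limit, at 6.003 in WT and 8.502 in 3xTg, so the stated limits do not set their ends. The deposited columns hold a score, a fold enrichment (a ratio), −log10 p-values and q-values and the summit offset. The p-values were not used, and the q-values served for the alternative limit on q. Peaks on chromosome Y (4 WT, 9 3xTg) were listed although the mice were described as female. They were left out here, and their origin was not tested. Peaks were assigned to curated RefSeq transcripts of GRCm38.p6 (mm10), and shared peaks overlapped by at least 1 base. Of 50 other pathway symbols, 49 matched. Ranks are by fold enrichment, highest first. Every member with a peak is named, together with the 3 strongest other pathway genes in 3xTg and any gene whose start lies nearer to a member summit. The members and lists were chosen with earlier results of these data known. Sequences came from the same build. All 200 RE1 sites planted in random sequences with at most 3 mismatches were found, a check that does not cover matches with more mismatches. Python 3.11.15 with numpy 2.4.6, pandas 2.3.3 and pysam 0.24.0, bedtools 2.31.1 and samtools 1.23.1 were used. Alternatives were other gene definitions, limits, overlaps and mismatches.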

Additional observations from a re-analysis of the deposited data

How the results depend on the processing

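Of 56 recomputed counts, 39 stayed within 1.5 times the reported count and 17 did not. Some of the 39 could not move, so the tally is not a measure of robustness. The limit on q removed no peak, and no member lies on chromosome Y. A protein-coding background changes only the share set beside a count. With start sites within 5 kb alone, 5 members had a 3xTg peak and 0 had one in 3xTg without WT (4.61% of all genes). Within 1 kb alone, 4 members had a WT peak (beside 5.31% of all genes) and 5 a 3xTg peak (7.82%). The count with a 3xTg peak and no WT peak stayed at 2 (3.86%), but the genes were then Birc2 and Casp9. With gene bodies alone, 4 had a 3xTg peak and no WT peak (5.97%). At fold enrichment over 10 in both lists, 1 member had a WT peak and 6 had one in 3xTg without WT. The WT member peaks were then 1 shared and 0 WT-only, and the 3xTg member peaks 1 shared and 8 3xTg-only, beside 0.669% WT-only and 81.5% 3xTg-only over the whole lists. With as many 3xTg as WT peaks, 0 members had a 3xTg peak without a WT peak (2.42% of all genes). Of the member peaks, 2 were then WT-only and 2 3xTg-only (31.5% and 31.9% of all peaks). When sharing required 50% of each peak, 3 were WT-only (40.8% of all WT peaks). With at most 6 mismatches to RE1, 2 WT and 3 3xTg member peaks matched, beside 14.8% and 17.5% of all peaks. A q under 1e-05 removed no peak, since the lowest −log10 q was 13.3 in WT and 29.0 in 3xTg. No paired analysis was possible because the lists pool the replicates, which also bars leaving out a replicate. From these lists no difference between genotypes could be set against replicate error, and weak sites depend on where each list ends.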
